A study of Bos taurus with 55 samples.

Results

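Milk is far poorer in sodium and chloride than plasma, and the alveolar epithelium of the lactating gland maintains that difference. Sodium enters epithelial cells through the apical epithelial sodium channel, whose alpha subunit is encoded by SCNN1A, and leaves them through the basolateral sodium pump (Na,K-ATPase), whose beta-1 subunit is encoded by ATP1B1. Chloride crosses the apical membrane partly through CFTR, a channel opened by cyclic AMP and protein kinase A. Tight junctions seal the space between the cells, and sodium and chloride in milk rise when these junctions open, as in involution or mastitis.

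The 3 genes SCNN1A, ATP1B1 and CFTR were taken by name, and their probe sets were looked up through the RefSeq transcript that names each probe set. SCNN1A (NM_174598) and CFTR (NM_174018) each had 1 probe set, so 2 of the 3 genes were measured among 6636 named genes. ATP1B1 had no probe set matched to its symbol and was not analysed here. The genes were chosen by their within-cow differences between oil feeding and the control diet, which were known beforehand. Their values in that comparison are therefore given as a description, without a test.

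The biopsies came from 28 Holstein-Friesian cows in mid-lactation, placed in 4 diet groups of 7 that were balanced for parity, days in milk, milk yield and milk fat content. In period I, of 23 days, the ration carried 2.7% of added oil. The oil was from rapeseed, rich in oleic acid, from soybean, rich in linoleic acid, from linseed, rich in alpha-linolenic acid, or was an equal blend of these. In period II, of 28 days, the same animals ate a control diet with no added oil, and all cows grazed ryegrass and clover pasture by day in addition. Mammary gland was sampled when each period ended, at 176 days in milk on average for the oil diets and 204 days for the control diet. Period I gave 28 arrays and period II gave 27, because 1 cow given linseed oil had no second array. Every cow received oil first, so diet, order of the periods and stage of lactation cannot be told apart.

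Values are log2 of the probe set intensity, and a difference of 1 is a doubling. The caseins and other milk protein genes measured, which define secreting mammary tissue, averaged 13.1 (CSN1S1) to 14.2 (PAEP) over the arrays, and of 12 luminal epithelial markers 9 were measured. Of the 55 arrays, 7 stood apart: they correlated less with the rest than all others did (mean correlation 0.911 to 0.951, against 0.961 or more for the other 48). They were the period I arrays of cows 5, 10 and 12 and the period II arrays of cows 1, 2, 5 and 15. Array names carry 2 prefixes, of unstated meaning. Prefix 1 stands on 25 of the period I arrays and on 2 of period II, and prefix 2 on 3 of period I and 25 of period II. The running array number equals the cow number in period I and is higher by 28 in period II.

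SCNN1A was a gene of middle to high level whose range was wide. Over the 55 arrays its level ran between 2.61 and 8.87 with a median of 5.75, and 74.3% of probe sets had a lower mean. It lay below its own array's median in 4 arrays. CFTR was dim: its level ran between 1.26 and 3.27 with a median of 1.67, below the array's own median in 55 of 55 arrays and below the lower quartile in 47. Only 12.7% of probe sets had a lower mean, and the table carries no detection call, so whether the CFTR signal stands above background was not tested. These levels come from different probe sets and do not order the amounts of the 2 transcripts.

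On rapeseed oil, SCNN1A had a lowest, median and highest level of 2.61, 5.47 and 6.54, against 4.98, 7.09 and 8.87 in the same 7 cows on the control diet. The 2 lowest oil-period values, 2.61 in cow 12 and 2.91 in cow 10, came from arrays apart. On soybean oil the 3 values were 3.89, 5.50 and 6.23, against 5.22, 6.77 and 8.04 on the control diet. The ranges of the 2 periods overlapped in both groups of cows, yet SCNN1A was lower in the oil period in 7 of 7 cows given rapeseed oil and in 7 of 7 given soybean oil.

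On linseed oil, SCNN1A had a lowest, median and highest level of 3.65, 5.09 and 6.17 (n = 7), against 3.18, 6.22 and 8.27 on the control diet (n = 6). The 2 lowest of the control-diet values, 3.18 in cow 15 and 4.00 in cow 5, were on arrays apart. On the oil mixture the values were 4.09, 5.44 and 6.59, against 3.18, 6.01 and 7.30 on the control diet, where the lowest belonged to cow 1, again an array apart. The ranges of the 2 periods overlapped in both groups of cows, and the gene was lower in the oil period in 4 of 6 cows given linseed oil and 4 of 7 given the mixture. Without the arrays apart, SCNN1A lay between 3.65 and 6.17 on linseed oil (n = 6), against 5.75 to 8.27 on the control diet (n = 4), so these ranges overlapped in a narrow part.

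**Figure D1:**
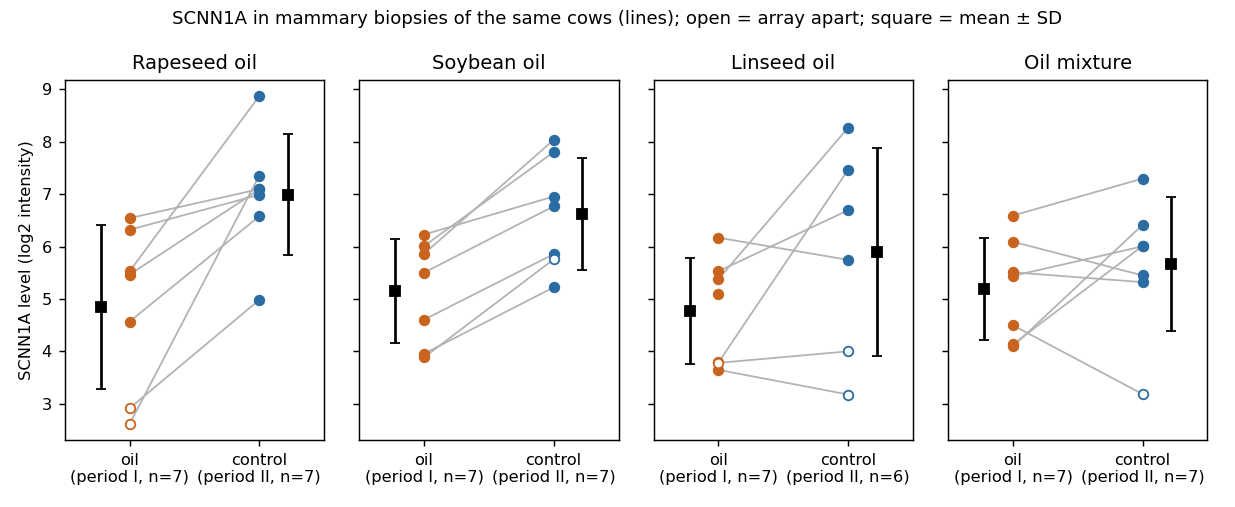
SCNN1A level (log2 intensity) in each cow, with 1 panel for each period I diet, the oil period left and the control period right, and lines joining arrays of a cow. Open circles are arrays apart and squares with bars are the mean ± SD; every cow is lower in the oil period in the rapeseed and soybean oil panels, 7 of 7 each, while lines of both slopes stand in the linseed oil and mixture panels.

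Averaged over cows, SCNN1A had a level of 4.85 ± 1.56 on rapeseed oil and 6.99 ± 1.15 in those cows on the control diet (SD, n = 7 each). It was 5.15 ± 0.99 on soybean oil and 6.63 ± 1.07 on the control diet (SD, n = 7 each). The cows given linseed oil had 4.77 ± 1.02 on the oil (SD, n = 7) and 5.89 ± 1.99 on the control diet (SD, n = 6), and those given the mixture had 5.19 ± 0.98 on the oil and 5.67 ± 1.28 on the control diet (SD, n = 7 each). Ranked by mean level, the lowest was linseed oil, followed by rapeseed oil, soybean oil and the mixture, all in period I. The period II levels then followed in the order of cows earlier on the mixture, linseed oil, soybean oil and rapeseed oil. Each step between neighbours, 0.04 to 0.74, was smaller than the smaller of the 2 SDs beside it.

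Within cows, SCNN1A was lower by a mean log2 difference of -1.32 ± 0.25 (SE, n = 27 cows) in the oil period, a 2.50-fold lower intensity, and it was lower in 22 of 27 cows. The single changes ran between -4.74 and 1.31 with a median of -1.27 and an SD of 1.39. The change was -2.14 ± 0.47 on rapeseed oil, -1.48 ± 0.47 on soybean oil, -1.18 ± 0.51 on linseed oil and -0.48 ± 0.47 on the mixture (SE, n = 7, 7, 6 and 7 cows). The SEs by oil, here and below, come from 1 fit that pools the spread over the 4 oils. They do not show each group's own spread. The changes were most alike on soybean oil, where their SD was 0.49, against 1.48, 1.75 and 1.31 for rapeseed oil, linseed oil and the mixture. Without the 6 cows that had an array apart, the overall change was -1.36 ± 0.23 (SE, n = 21), lower in 18 cows. By oil it was then -1.64 ± 0.47 on rapeseed oil, -1.41 ± 0.43 on soybean oil, -1.83 ± 0.53 on linseed oil and -0.77 ± 0.43 on the mixture (SE, n = 5, 6, 4 and 6 cows), so the order of the oils changed. In a piece of whole tissue, fewer cells of a type and less RNA per cell cannot be told apart.

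In the limma fit over all 10680 probe sets, with cow as a block, 34.4% were called at an adjusted p under 0.05 for the oil period against the control period, 18.8% as higher and 15.6% as lower. No call is given for SCNN1A and CFTR, which were picked by this contrast.

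The array name prefix moved with the period, and the SCNN1A difference was not the same where the prefix stayed fixed. In the 22 cows whose arrays carried different prefixes, SCNN1A was lower in the oil period in 20, with a median change of -1.45. In the 5 cows with both arrays of 1 prefix the changes were 1.31 (cow 1), -1.87 (cow 2), 0.42 (cow 7), -1.25 (cow 9) and 0.64 (cow 14), so 2 were lower and 3 higher. Their mean, which is also the fitted change with cow and prefix together, was -0.15. Between cows, the fitted difference was 0.44 among arrays of prefix 1, where both period II arrays (cows 1 and 2) were arrays apart, and -0.84 among arrays of prefix 2. With array number in place of the cow, the fit gave 1.04. That fit is not paired by cow, and array number is cow number within a period. The part of prefix and array order in the SCNN1A difference was not tested, because almost every cow changed both with the diet.

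**Figure D2:**
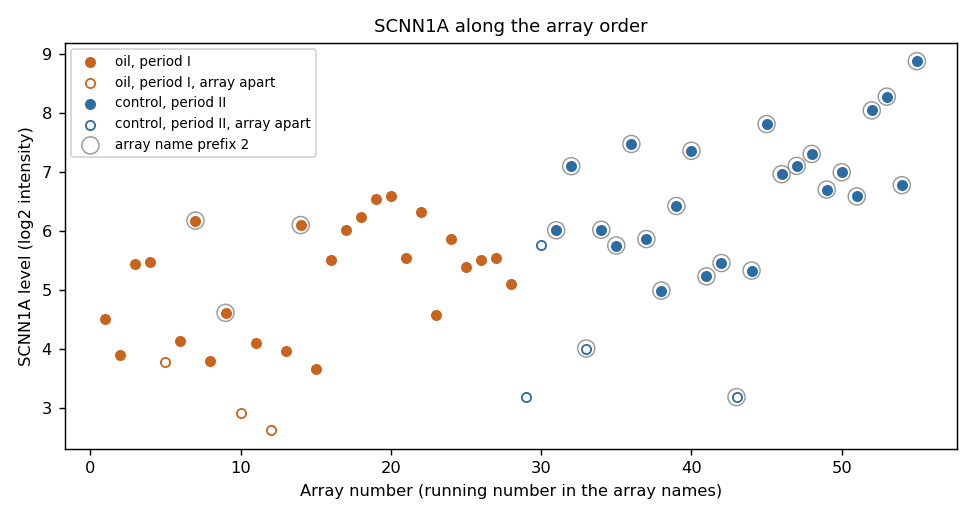
SCNN1A level (log2 intensity) against the running array number, with 1 point for each of 55 arrays. Orange points are oil-period arrays, blue points control-period arrays, open points arrays apart, and a grey ring marks prefix 2; within a period r between level and number is 0.416 (oil period) and 0.546 (control period) without the arrays apart, and neither passed adjustment.

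Within a period, SCNN1A was positively correlated with the array number, but not past adjustment over 12 technical relations. Over the 25 period I arrays that were not apart, Pearson's r was 0.416, with a permutation p of 0.0391 and an adjusted p of 0.156, beside a Spearman's rho of 0.395 (permutation p = 0.0515, adjusted p = 0.206). Over the 23 such arrays of period II, r was 0.546, with a permutation p of 0.00697 and an adjusted p of 0.0836, beside a rho of 0.493 (permutation p = 0.0181, adjusted p = 0.109). Leaving out the pair of arrays farthest along the number, r was 0.312 in period I and 0.611 in period II, and within 1 prefix it was 0.489 and 0.546. Array number is cow number within a period, so array order and differences between cows cannot be told apart. The 3′ to 5′ signal differences of the GAPDH and actin control probe sets, which read RNA length, had r between -0.329 and 0.167 with SCNN1A within a period, with no adjusted p under 0.05. Between the periods, the GAPDH difference was higher in the oil period in 22 of 27 cows, at 0.40 ± 0.25, against 0.11 ± 0.41 in the control period (SD, n = 27 each). Without the 6 cows it was higher in 18 of 21, at 0.38 ± 0.25, against 0.06 ± 0.19. The actin difference went the other way, lower in the oil period in 20 of 27 cows, at 0.66 ± 0.29, against 0.76 ± 0.28. The part of RNA length in the SCNN1A difference was not tested.

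CFTR stayed low in every group. On rapeseed oil it averaged 1.71 ± 0.27, against 1.63 ± 0.22 in the same cows on the control diet (SD, n = 7 each). On soybean oil it averaged 1.63 ± 0.18, against 1.71 ± 0.22 on the control diet (SD, n = 7 each). It averaged 1.98 ± 0.38 on linseed oil (SD, n = 7), against 1.97 ± 0.65 on the control diet (SD, n = 6), and 1.72 ± 0.36 on the mixture, against 1.88 ± 0.25 on the control diet (SD, n = 7 each). The groups overlapped throughout. In order of mean level the lowest was period II after rapeseed oil and the highest linseed oil in period I, and every step between neighbours, at most 0.15, was below the smaller SD beside it.

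The within-cow change of CFTR was -0.03 ± 0.08 (SE, n = 27), lower in 14 cows and higher in 13. By oil it was 0.09 ± 0.15 on rapeseed oil, -0.07 ± 0.15 on soybean oil, 0.04 ± 0.17 on linseed oil and -0.15 ± 0.15 on the mixture (SE, n = 7, 7, 6 and 7 cows). These SEs by oil again pool the spread over the oils. The 95% interval of the overall change ran between -0.18 and 0.13. Without the 6 cows it was -0.01 ± 0.08 (SE, n = 21), and on linseed oil it was then 0.35 ± 0.17 (SE, n = 4), higher in 4 of 4 cows. The 5 cows with both arrays of 1 prefix gave a mean change of 0.05. With array number in place of the cow the fitted difference was -0.52. The highest CFTR level of all, 3.27, was on the period II array of cow 5, an array apart.

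**Figure D3:**
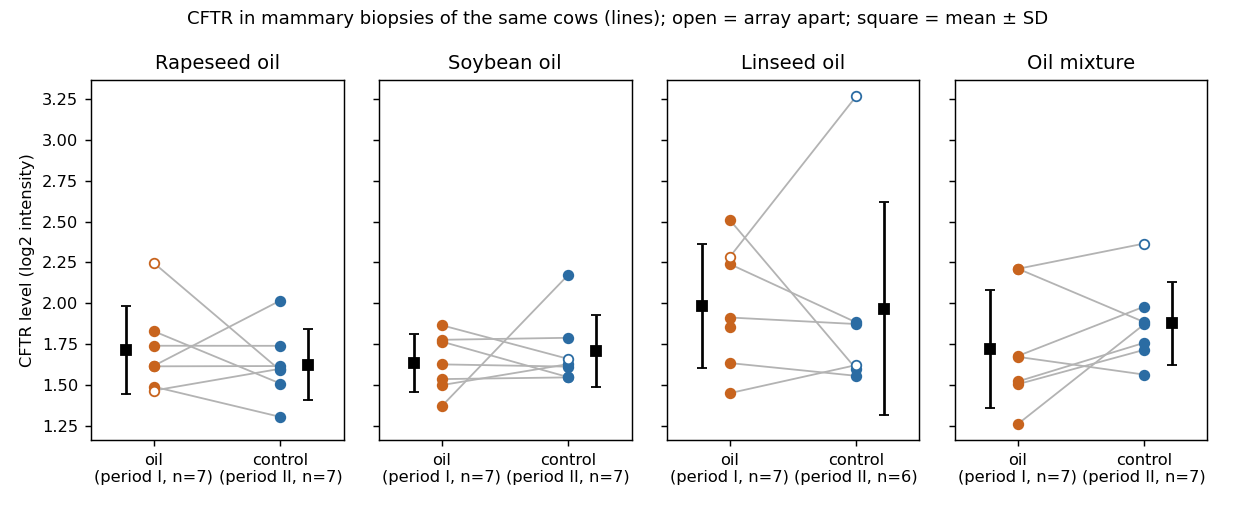
CFTR level (log2 intensity) in each cow, with 1 panel for each period I diet, the oil period left and the control period right, and lines joining arrays of a cow. Open circles are arrays apart and squares with bars are the mean ± SD; all values lie between 1.26 and 3.27 and lines of both slopes stand in each panel.

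The oils were then compared with each other. The within-cow changes are those by which the genes were chosen, so p values for differences between these changes, here and below, are given as a description. Limma's moderated F for a difference of the within-cow change between the 4 oils gave an adjusted p of 0.948 for SCNN1A (unadjusted p = 0.118) and 0.974 for CFTR (unadjusted p = 0.683). The same test called 0 of the 10680 probe sets (0%), with 486 at an unadjusted p under 0.05. Between the diets within period I, limma gave an adjusted p of 1.00 for both genes, and 0 probe sets were called (0%), 277 at an unadjusted p under 0.05. Between the same groups of cows on the control diet, limma gave an adjusted p of 0.976 for both genes, with 0 called (0%) and 397 at an unadjusted p under 0.05.

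Of the 6 pairs of oils, over all 27 cows, the pair farthest apart in the SCNN1A change was rapeseed oil and the mixture, with a difference of -1.67 (95% interval -3.04 to -0.30, limma unadjusted p = 0.0189, adjusted p = 0.970). The intervals of the other 5 pairs all included 0. Without the 6 cows that had an array apart, that difference was -0.87 (95% interval -2.20 to 0.47), and the pair farthest apart was linseed oil and the mixture, at -1.05 (95% interval -2.48 to 0.37). The intervals over all cows were wide: for rapeseed minus linseed oil the difference was -0.97 with an interval of -2.39 to 0.46, which takes in differences as large as -1.32, the change over all cows. For CFTR, the level on soybean oil minus that on linseed oil in period I was -0.35 (95% interval -0.68 to -0.02, limma unadjusted p = 0.0407, adjusted p = 0.988). A cow's level in one period was only loosely tied to its level in the other. Pearson's r was 0.422 for SCNN1A and 0.346 for CFTR over 27 cows, with the arrays apart included.

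The relation to milk synthesis was set within each period, over arrays that were not apart by the correlation given above. Milk protein level was the mean of 6 genes (CSN1S1, CSN1S2, CSN3, LALBA, PAEP and GLYCAM1), and milk fat level the mean of 12 genes of fatty acid synthesis, desaturation and uptake, triacylglycerol assembly and the fat globule. For each level, 6 relations were computed, 3 for each gene. In period I, SCNN1A was higher in cows with a higher milk protein level, with r = 0.523 over 25 cows (permutation p = 0.00635, adjusted p = 0.0381). The rank correlation rho was 0.495, with a permutation p of 0.0132 and an adjusted p of 0.0795. That relation rested on the 2 arrays farthest along the milk protein level, since r was 0.325 without them (adjusted p = 0.263). Within prefix 1 alone r was 0.513 (n = 22, adjusted p = 0.0799). In period II r was -0.108 (n = 23, permutation p = 0.632, adjusted p = 0.758), and for the within-cow changes it was 0.210 (n = 21, permutation p = 0.362, adjusted p = 0.725). The rho of these was -0.153 and 0.0390, with adjusted p of 0.726 and 0.869.

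With the milk fat genes, planned as an alternative to the milk protein level, SCNN1A was related in both periods. Arrays centred on their median were not tried with this level. In period I r was 0.647 over 25 cows (permutation p = 5.6e-04, adjusted p = 0.00336), with a rho of 0.588 (permutation p = 0.00249, adjusted p = 0.0149). In period II r was 0.541 over 23 cows (permutation p = 0.00789, adjusted p = 0.0237), with a rho of 0.529 (permutation p = 0.0105, adjusted p = 0.0316). When the 2 farthest arrays were left out, r was 0.618 (adjusted p = 0.0113) in period I and 0.548 (adjusted p = 0.0310) in period II, and within 1 prefix it was 0.690 (n = 22, adjusted p = 0.00288) and 0.541 (n = 23, adjusted p = 0.0235). With array number removed by regression, an alternative added after the trend along the arrays was seen, r was 0.545 (adjusted p = 0.0286) in period I and 0.429 (adjusted p = 0.125) in period II. The within-cow changes of SCNN1A and of the milk fat level gave r = 0.333 (n = 21, permutation p = 0.143, adjusted p = 0.214) and rho = 0.316 (adjusted p = 0.327), and r was 0.163 without the 2 farthest cows.

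**Figure D4:**
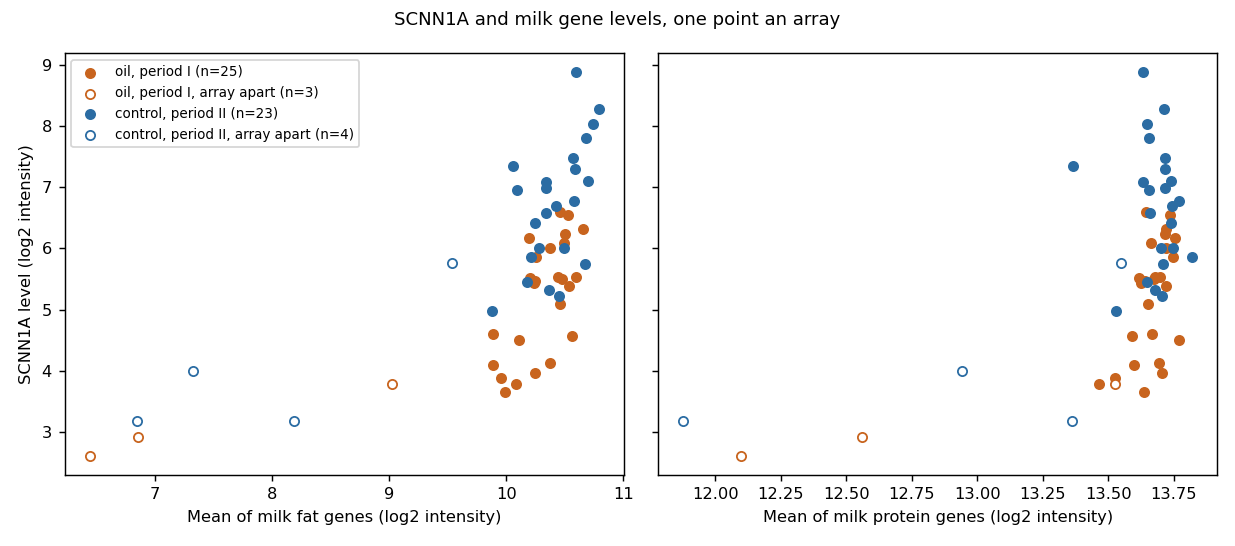
SCNN1A level against the mean level of 12 milk fat genes (left) and of 6 milk protein genes (right), all in log2 intensity, with 1 point for each array. Filled points are arrays that were not apart (25 of the oil period in orange, 23 of the control period in blue) and open points are the 7 arrays apart, which lie at lower milk fat gene levels than all filled points; among filled points r with the milk fat genes is 0.647 in the oil period and 0.541 in the control period.

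Gene by gene, SCNN1A was positively correlated with 12 of the 12 milk fat genes in period I (r between 0.34 and 0.68) and with 11 of 12 in period II. The highest in period I was GPAT4, an enzyme that starts glycerolipid synthesis (r = 0.679), and in period II FABP3, a fatty acid binding protein (r = 0.561). XDH, the xanthine dehydrogenase of the milk fat globule membrane, was the exception in period II (r = -0.145). Among milk protein genes the r with SCNN1A ran between 0.13 for LALBA, the lactose synthase subunit alpha-lactalbumin, and 0.59 for CSN3, kappa-casein, in period I. In period II these r lay between -0.23 and 0.01, positive for 1 of 6. These single values share arrays and are given as descriptions.

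CFTR showed no relation to milk genes that passed adjustment. With the milk protein level r was 0.00778 in period I (permutation p = 0.970, adjusted p = 0.970), 0.317 in period II (permutation p = 0.140, adjusted p = 0.421) and 0.135 for the changes (permutation p = 0.557, adjusted p = 0.758), over 25, 23 and 21 cows. With the milk fat level the r were -0.305, 0.00651 and -0.209, with adjusted p of 0.214, 0.976 and 0.443. The corresponding rho with the milk protein level were 0.209, 0.216 and 0.0597. In period I, CFTR had r = 0.467 with the 3′ to 5′ difference of the GAPDH probe sets (permutation p = 0.0187, adjusted p = 0.112 over the 12 technical relations). Between SCNN1A and CFTR themselves, r was -0.223 over the 25 arrays of period I and 0.0599 over the 23 of period II.

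In 7 of the 7 arrays apart, SCNN1A, the milk fat level and the milk protein level each lay below the median of the other arrays of the period. They lay below every other array of the period in 7 of 7 for milk fat, 5 of 7 for milk protein and 5 of 7 for SCNN1A, the 2 exceptions for SCNN1A being cow 5 in period I and cow 2 in period II. In period I its levels were 3.78, 2.91 and 2.61 in cows 5, 10 and 12, ranks 4, 2 and 1 from the lowest of 28, where the other arrays had a median of 5.47. The milk fat level of those arrays was 9.03, 6.86 and 6.45, against a median of 10.4 in the other arrays. In period II SCNN1A was 3.18, 5.76, 4.00 and 3.18 in cows 1, 2, 5 and 15, where the others had a median of 6.77, and the milk fat level was 8.19, 9.54, 7.32 and 6.85, again against 10.4. CFTR was 2.28, 1.47 and 2.25 in the 3 arrays of period I and 2.37, 1.66, 3.27 and 1.62 in the 4 of period II, so it lay on both sides of the other arrays' medians of 1.67 and 1.63. The mean level of the fibroblast markers lay 1.14 to 2.40 above the period's median in the 3 arrays of period I and 0.70 to 1.88 above it in the 4 of period II. The luminal epithelial marker mean also lay above the median, by 0.66 to 1.12 in period I and 0.69 to 1.14 in period II, and so did the macrophage marker mean, by 0.91 to 1.27 and 0.63 to 1.65. The endothelial marker mean differed from the median by -0.81 to -0.47 in period I and by -0.95 to 0.11 in period II. The part of tissue makeup in the low SCNN1A of these arrays was not tested.

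The named genes most like SCNN1A across cows were SLC2A8, AGPAT1 and CMTM8, by the smaller of the Pearson r over the 28 arrays of period I and the 27 of period II. SLC2A8, the glucose transporter GLUT8, had r of 0.850 and 0.865, and 0.773 and 0.702 without the arrays apart. AGPAT1, an acyltransferase that makes phosphatidic acid, had 0.823 and 0.825, and 0.709 and 0.675 without them. CMTM8, a membrane protein of the MARVEL family, had 0.806 and 0.829, and 0.713 and 0.612 without them. Of 6634 other named genes, 89 had r over 0.7 with SCNN1A in both periods, with the arrays apart included. The most opposed was the zinc finger gene ZNF184 (-0.802 and -0.798, and -0.660 and -0.582 without the arrays apart).

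For CFTR, 0 of 6634 genes reached 0.7 in both periods. The closest were LIN52, a subunit of the DREAM complex (r of 0.704 and 0.646), PSTPIP2, a membrane-bending adaptor (0.562 and 0.572), and NTS, the peptide neurotensin (0.529 and 0.799). In period II without the arrays apart, r was 0.137 for LIN52, -0.113 for PSTPIP2 and 0.533 for NTS, so the likeness of LIN52 and PSTPIP2 there rested on those arrays. The most opposed was FIS1, a gene of mitochondrial fission, with -0.617 and -0.621, and 0.0336 in period II without the arrays apart.

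Around these genes, 8 lists of ion and water transport and of tight junctions held 133 genes, of which 65 were measured. In the oil period 10 were called higher, 11 lower and 44 were not called, at limma's adjusted p over all 10680 probe sets, beside the 18.8% and 15.6% called higher and lower over all of them. The lists together were thus called at close to the rate of all probe sets, and the same shares are the background of each list below. Of the 65, 36 had a mean level under 4, among them 14 of the 21 that were called. The median change over all probe sets was 0.03. When prefix was fitted with the cow, 7 of the 21 calls were kept (AQP1, ATP1B2, CLDN16, FXYD2, FXYD7, NHERF2 and RAB11A) and 21 of 21 had the same sign. That fit takes the change from the 5 cows with both arrays of 1 prefix. These 5 cows were also among those by which the 21 genes were called. The shared sign is therefore partly built in and is not a separate check. With array number in place of the cow, 2 of the 21 calls were kept (CLIC4 and RAB11A), and 15 of the 21 had the same sign. Among arrays of prefix 1, 2 of the calls were kept, CLIC4 and PRKACA. Among arrays of prefix 2 limma kept 0, with 11 of the 21 at an unadjusted p under 0.05 in the same direction. Without the 6 cows that had an array apart 18 were kept, and CLIC4, FXYD7 and SLC4A4 were not called.

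Of 8 measured partners of the sodium channel, 0 were called higher by limma (2 at an unadjusted p under 0.05) and 3 lower, and these 3 are proteases that activate it by cleavage. PRSS8, the membrane protease prostasin, had a level of 6.04 in the oil period, against 6.41 in the control period (change -0.37 ± 0.08 SE, limma adjusted p = 4.78e-04, lower in 22 of 27 cows). ST14, the protease matriptase, had 5.57, against 5.93 (-0.36 ± 0.11 SE, limma adjusted p = 0.0107, lower in 21). FURIN, the proprotein convertase that cleaves the channel in the secretory pathway, had a low level of 1.39, against 1.76 (-0.36 ± 0.06 SE, limma adjusted p = 8.19e-05, lower in 24). The median change of the list was 0.12. SCNN1B, the beta subunit, changed by 0.18 ± 0.09 (SE, limma adjusted p = 0.111), and SGK1, the aldosterone-induced kinase that keeps the channel at the membrane, by 0.18 ± 0.14 (SE, limma adjusted p = 0.366). With cow and prefix in the fit the changes were -0.44 for PRSS8, -0.59 for ST14 and -0.30 for FURIN. None was called there (limma adjusted p of 0.0908, 0.109 and 0.169), where the change rests on the 5 cows with both arrays of 1 prefix. With array number in place of the cow, PRSS8 had 0.40 (limma adjusted p = 0.193) and ST14 0.62 (limma adjusted p = 0.0478).

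Of 9 measured genes of the sodium pump, 3 were called higher and 1 lower, with a median change of 0.14. FXYD2, the pump's gamma subunit, had a level of 2.20 in the oil period, against 1.68 in the control period (change 0.52 ± 0.08 SE, limma adjusted p = 1.15e-05, higher in 24 of 27 cows). ATP1B2, the beta-2 subunit, was higher by 0.22 ± 0.05 (SE, limma adjusted p = 0.00103) and FXYD7, a pump regulator of brain, by 0.20 ± 0.07 (SE, limma adjusted p = 0.0299). FXYD1, the regulator phospholemman, was called lower at -0.32 ± 0.12 (SE, limma adjusted p = 0.0461), and was no longer called in the fit without the cow block (adjusted p = 0.146) or with centred arrays (adjusted p = 0.0690). FXYD7 was not called without the 6 cows (adjusted p = 0.0518). All 4 had mean levels under 4.

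Chloride channels and carriers had 12 of 36 listed genes measured, with 2 called higher, 1 lower and a median change of 0.11. CLCN7, the chloride and proton exchanger of lysosomes, was lower in 25 of 27 cows (2.03 in the oil period against 2.30 in the control period, change -0.27 ± 0.04 SE, limma adjusted p = 2.12e-05). CLCN2, a plasma membrane chloride channel, was dim at 2.11, against 1.93, and was called higher (0.18 ± 0.06 SE, limma adjusted p = 0.0170). CLIC4, a chloride intracellular channel family protein, was the brightest called gene at 10.0, against 9.73 (0.31 ± 0.11 SE, limma adjusted p = 0.0339). Its change was -0.23 among arrays of prefix 2, and 0.17 without the 6 cows (adjusted p = 0.134). SLC12A2, the basolateral carrier of sodium, potassium and chloride, changed by 0.09 ± 0.19 (SE, limma adjusted p = 0.741).

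Among 10 measured partners of CFTR, 1 was called higher and 3 lower, with a median change of -0.03. NHERF1, a PDZ scaffold that binds the tail of CFTR, had a level of 4.44 in the oil period, against 5.25 in the control period (change -0.81 ± 0.16 SE, limma adjusted p = 2.47e-04, lower in 24 of 27 cows). NHERF2, its paralogue, had 3.10, against 3.80 (-0.71 ± 0.10 SE, limma adjusted p = 1.00e-05, lower in 24). PRKACA, the catalytic subunit of protein kinase A, had 2.96, against 3.60 (-0.65 ± 0.15 SE, limma adjusted p = 0.00189, lower in 22). RAB11A, a GTPase of recycling endosomes, was higher at 8.98, against 8.73 (0.25 ± 0.06 SE, limma adjusted p = 0.00124). With array number in place of the cow, NHERF1 had 0.40 and NHERF2 0.0073 (limma adjusted p of 0.408 and 0.988).

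**Figure D5:**
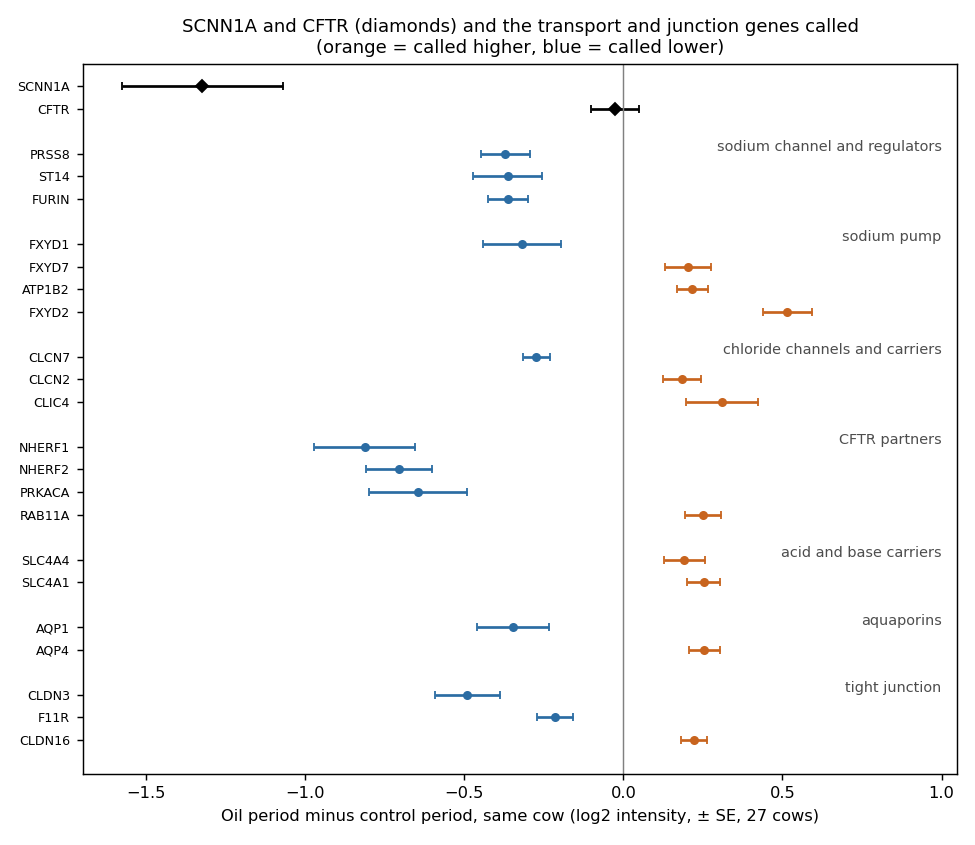
Change in log2 intensity, oil period minus control period in the same cow (mean ± SE, 27 cows), for SCNN1A and CFTR (black diamonds, given as a description) and, by list, for the 21 transport and junction genes called. Orange marks genes called higher (10) and blue genes called lower (11). Of the 21 genes, NHERF1 at -0.81 lies farthest left. SCNN1A, at -1.32, was picked by this contrast, so its place left of them is not a result.

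Carriers of bicarbonate, channels for potassium and channels for water made up smaller lists. Of 4 measured acid and base carriers 2 were called higher, both at mean levels under 4: SLC4A1, the anion exchanger of red cells, by 0.25 ± 0.05 (SE, limma adjusted p = 4.64e-04), and SLC4A4, a sodium bicarbonate cotransporter, by 0.19 ± 0.06 (SE, limma adjusted p = 0.0223; 0.0740 without the 6 cows). Of 5 potassium channels 0 were called by limma (1 at an unadjusted p under 0.05), with KCNMA1, the large-conductance channel, at 0.29 ± 0.12 (SE, limma adjusted p = 0.0666). Of 5 aquaporins, AQP4, best known from astrocytes, was dim at 2.01, against 1.76, and was called higher (0.25 ± 0.05 SE, limma adjusted p = 2.54e-04). AQP1, the water channel of endothelium and red cells, was called lower (-0.35 ± 0.11 SE, limma adjusted p = 0.0184). AQP3, an epithelial water and glycerol channel, changed by 0.36 ± 0.29 (SE, limma adjusted p = 0.354).

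Of 12 measured tight junction genes 2 were called lower and 1 higher, with a median change of -0.20. CLDN3, a sealing claudin, had a level of 6.05 in the oil period, against 6.54 in the control period (change -0.49 ± 0.10 SE, limma adjusted p = 5.07e-04, lower in 23 of 27 cows). F11R, the junctional adhesion molecule JAM-A, had 6.70, against 6.91 (-0.21 ± 0.06 SE, limma adjusted p = 0.00466, lower in 21). CLDN16, a claudin of paracellular cation passage in kidney, was dim at 1.60, against 1.38, and was called higher (0.22 ± 0.04 SE, limma adjusted p = 1.33e-04). With cow and prefix in the fit, where the change rests on 5 cows, CLDN3 had -0.54 and F11R -0.24, and neither was called (limma adjusted p of 0.117 and 0.215). With array number in place of the cow they had 0.29 and 0.155 (limma adjusted p of 0.327 and 0.395). F11R was also not called with centred arrays (adjusted p = 0.0539).

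Some epithelial markers were lower in the same contrast, in which 18.8% of all probe sets were called higher and 15.6% lower. Of the 9 luminal markers measured, limma called 0 higher and 4 lower (0 and 6 at an unadjusted p under 0.05), and their mean changed by -0.45 (SD over cows 0.63), lower in 18 of 27 cows. KRT7 had -0.76 ± 0.16 and KRT19 -0.47 ± 0.12 (SE), both called, while EPCAM, an epithelial adhesion molecule at a level of 10.3 in both periods, had -0.03 ± 0.10 (SE, limma adjusted p = 0.821). CLDN3 stands both in this list and among the junction genes. The summed intensity of the 9 ran between 2111 and 6750 in period I and between 2220 and 7676 in period II. Of 8 endothelial markers limma called 0 higher and 5 lower (0 and 5 at an unadjusted p under 0.05), and the counts were the same for 8 fibroblast markers. Their summed intensities ran between 111 and 334 in period I and 150 and 502 in period II for endothelium, and between 3994 and 23554 in period I and 3650 and 19262 in period II for fibroblasts. Called higher and lower were 0 and 2 of 8 macrophage markers (1 and 4 at an unadjusted p under 0.05) and 0 and 1 of 5 myoepithelial ones (0 and 1 unadjusted). For T and NK cells they were 1 and 1 of 6, for adipocytes 2 and 1 of 6, and for erythrocytes, whose list includes SLC4A1, 1 and 0 of 4. The 6 milk protein genes had 0 called by limma, also at an unadjusted p under 0.05, and a median change of -0.01, and the 12 milk fat genes had 0 called higher and 2 lower (0 and 2 unadjusted), with a median of -0.03. The part of cell makeup in the SCNN1A difference was not tested.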

How the data were processed

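Each biopsy was hybridised to a 1-colour Affymetrix array for cattle, with cRNA made from 2 micrograms of RNA. The deposited table gives an intensity on a linear scale for each probe set. RMA and GCRMA are the tools named per the submitters' processing notes, and the role and version of each are not given in the sources used here. The log2 of the deposited intensities was taken, with no further scaling. Array medians lay between 9.47 and 12.0 on the linear scale, and between 3.24 and 3.59 in log2. Counts with centred arrays are given below. Of 11495 probe sets, 112 were controls and 703 were merged with one of identical values, which left 10680. A RefSeq table gave symbols for 6649 of them.

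The 3 genes, the 8 pathway lists, the milk gene lists and the cell type markers were chosen with earlier results of these data known. Arrays were fitted in R 4.3.3 with limma 3.58.1 (lmFit and eBayes, two-sided, Benjamini-Hochberg over all probe sets, called at an adjusted p under 0.05). The fit of oil against control period used the 27 cows with both arrays and the cow as a block. Both arrays of a cow come from the same animal: the correlation of their deviations had a median of 0.192 within cows (from -0.200 to 0.671, over 0.1 in 18 of 27), against 0.00833 between cows. Changes are period I minus period II. Named pathway genes are among the up to 4 of each list with the smallest p (some results are not reported here); others named beside them (SCNN1B, SGK1, SLC12A2, and the markers KRT7, KRT19 and EPCAM) were chosen after their values were seen. Correlations across cows used 100000 permutations. On simulated data of 10680 probe sets, the fit of oil against control period recovered 87 of 100 changed 1.5-fold and 97 of 100 changed 2-fold, with 7 unchanged ones called. For the difference of change between oils it recovered 30 and 67 of 100. The number of arrays limits the precision. Alternatives covered the cow block, prefix, array number, arrays apart, scaling, dim probe sets and each cow left out.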

Additional observations from a re-analysis of the deposited data

Results flagged for a closer look

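In 24 sets of 6 or 7 values (levels by diet and period, and changes by diet, for both genes), 3 held a value far from the rest of its set, where chance gives about 1 in 20. All 3 were CFTR values, in the range of dim probe sets. The change of cow 9 on soybean oil was -0.80, where the next lowest was -0.13 and the highest 0.22. Its period II level of 2.17 also stood above the next value, 1.79, and the lowest, 1.55. That level is part of the change of cow 9, so the flags of cow 9 are not separate. Changes are built from the levels, so the 24 sets are not independent. Both arrays of cow 9 carry prefix 2. In period II after linseed oil, cow 5 had a CFTR level of 3.27, where the next was 1.88 and the lowest 1.56, and this was an array apart. The part of array prefix, array quality or tissue makeup in these 3 values was not tested.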

How the results depend on the processing

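The SCNN1A change of -1.32 was 0.44 within prefix 1, -0.84 within prefix 2, -0.15 with cow and prefix and 1.04 with array number, and CFTR (-0.03) was -0.52 with array number. Probe sets called (3669) numbered 1645 with cow and prefix, 572 and 403 within prefixes 1 and 2, 819 with array number and 1520 when tested only at a mean of at least 4. Pathway genes called higher (10) numbered 2, 0, 6, 20 and 2 within prefix 1, within prefix 2, with array number, with centred arrays and at a mean of at least 4; those called lower (11) numbered 4 with cow and prefix, and 2, 0, 1 and 5 within prefixes 1 and 2, with array number and at a mean of at least 4. Centring moved the split of calls to 71.9% higher, from 54.6% in the uncentred data. With array number PRSS8 turned to 0.40, ST14 to 0.62 (adjusted p = 0.0478), NHERF2 to 0.0073, NHERF1 to 0.40, KCNE1 to -0.070, AQP7 to 0.080, CLDN3 to 0.29 and F11R to 0.155. Of these, only ST14 had a limma adjusted p under 0.05 in that fit. AQP7 also turned to 0.015 centred, 0.31 with cow and prefix, 0.39 within prefix 1 and 0.026 within prefix 2, where CLIC4 was -0.23 and KCNE1 -0.40. The cause of these changes was not tested.

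Leaving out the replicate block (pairing of arrays by cow) could not alter the SCNN1A change of -1.32, only the calls. Each cow in the fit had 1 array in each period. Without the block, 3379 probe sets were called. FXYD1 (adjusted p = 0.146) and CLIC4 (adjusted p = 0.0663) were not called, and the other 19 pathway calls were kept. Of the 21 calls, 18 were kept without the 6 cows, 19 centred (not F11R and FXYD1) and 18 under quantile normalization (not CLCN2, CLIC4 and SLC4A4). With 1 cow left out the probe sets called ranged from 3391 to 3939, pathway genes higher from 8 to 16 (16 without cow 10) and lower from 10 to 13, and the SCNN1A change from -1.43 to -1.19. FXYD1 lost its call without any 1 of 20 cows, CLIC4 without any of 7 and FXYD7 without any of 5. By oil the SCNN1A change ranged from -2.41 to -1.71 on rapeseed oil, -1.60 to -1.36 on soybean oil, -1.51 to -0.68 on linseed oil and -0.77 to -0.17 on the mixture.

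The r of SCNN1A with milk genes was 0.523 in period I. It was 0.478 with array number removed, 0.478 with centred arrays, 0.513 within a prefix and 0.325 without the 2 farthest arrays, each at an adjusted p over 0.05. In period II (-0.108) it was 0.586 over all arrays and 0.541 with milk fat genes, and for the changes (0.210) it was 0.582 over all arrays and -0.095 without the 2 farthest. For CFTR (0.00778, 0.317 and 0.135) it was -0.159, -0.228 and -0.305 over all arrays; with milk fat genes -0.305 in period I and -0.209 for the changes; and within a prefix -0.160 and -0.221. Each gene had 1 probe set, so no other probe set could be tried, and CFTR gave no value at a mean of at least 4.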
